A study of Mus musculus with 2 samples.

Results

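Mitochondrial ribosomal protein genes are nuclear genes whose products are imported into mitochondria and built into the mitochondrial ribosome. They were taken here as the protein-coding genes whose mouse symbol starts with Mrpl or Mrps followed by a digit. Of 78 annotated symbols, 77 had a row in both gene tables, among 21461 nuclear protein-coding genes. Mrpl33 had no matched row and was not analysed here. The levels come from total RNA of mouse megakaryocyte-erythroid progenitors (MEP), bone marrow cells that give rise to red cells and platelets. All samples form 1 group, MEP from male C57BL/6J mice aged 5 to 6 weeks with no treatment named in the labels, and it holds 2 libraries, replicate 1 and replicate 2. Libraries started from 100 ng, and ribosomal RNA was depleted. Both carry the same donor entry but separate biosamples, so the spread between them may be technical. With 1 group there is no comparison of conditions, and no p-value is given.

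The mitochondrial ribosome translates the few messenger RNAs that mitochondrial DNA encodes, all for subunits of the respiratory chain and ATP synthase. Its RNA comes from the mitochondrial genome, whereas every protein is made in the cytosol from nuclear genes. Some of these proteins descend from the bacterial ribosome and others are found only in mitochondria. Erythroid cells draw on mitochondria for heme and iron-sulfur cluster synthesis as well as for respiration.

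Sequences are shown first for stretches around 3 of the motifs searched in member promoters, 1 for each of 3 factors linked to nuclear genes of mitochondria. The nuclear respiratory factor NRF1 and the ETS factor GABPA are known regulators of nuclear genes for mitochondrial proteins, and YY1 is a zinc-finger factor found at many such genes. Promoters were RefSeq windows of 300 bases, 250 before and 50 after a start, on GRCm38.p6, and 68 of the 77 members had at least 1, with 74 promoters in all. The stretches below hold the NRF1 palindrome core in capitals, in 3 members, on either strand, in stretches written along the gene's strand with the core before the start. In Mrpl9 and Mrpl17 the capitals also cover the overlapping short site TGCGCA, which Mrpl17 holds once more further on. They lie at chr11:120484516-120484605 (plus strand, Mrpl12), chr3:94443268-94443335 (plus strand, Mrpl9) and chr7:105811088-105811176 (minus strand, Mrpl17).
Mrpl12: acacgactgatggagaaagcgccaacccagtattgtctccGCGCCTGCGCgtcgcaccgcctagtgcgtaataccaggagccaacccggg
Mrpl9: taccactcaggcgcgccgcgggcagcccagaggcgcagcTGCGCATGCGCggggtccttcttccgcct
Mrpl17: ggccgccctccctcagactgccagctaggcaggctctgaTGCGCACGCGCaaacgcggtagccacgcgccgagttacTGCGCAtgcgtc

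The next stretches hold the ETS core of GABPA, CCGGAAG on either strand, in capitals, from 3 members of high level. They lie at chr14:54426822-54426908 (plus strand, Mrpl52), chr7:100583131-100583204 (minus strand, Mrpl48, at a RefSeq start inside the gene) and chr9:105053209-105053267 (plus strand, Mrpl3).
Mrpl52: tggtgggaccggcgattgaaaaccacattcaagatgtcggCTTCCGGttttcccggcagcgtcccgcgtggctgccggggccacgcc
Mrpl48: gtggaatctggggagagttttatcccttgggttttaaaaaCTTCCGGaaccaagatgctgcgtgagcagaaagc
Mrpl3: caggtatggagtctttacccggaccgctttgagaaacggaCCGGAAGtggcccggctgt

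The YY1 core AAGATGGC, in capitals below, lay mostly just after the start. Of its 12 matches in member promoters, 8 (66.7%) were on the gene's strand within the 50 bases after the start, against 39.3% of the 670 matches in all promoters. In 6 of the 8, the ATG inside the motif is an annotated start codon in GENCODE M21. The 4 stretches shown lie at chr17:46111004-46111033 (plus strand, Mrps18a), chr11:115604147-115604176 (plus strand, Mrps7), chr13:99344789-99344818 (plus strand, Mrps27) and chr6:71823743-71823772 (minus strand, Mrpl35), and all 4 are among those 6.
Mrps18a: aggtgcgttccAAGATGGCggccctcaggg
Mrps7: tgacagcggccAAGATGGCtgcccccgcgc
Mrps27: tggtgcgctccAAGATGGCggctcccatgg
Mrpl35: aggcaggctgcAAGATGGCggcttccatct

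Letters of these 3 motifs were found at higher shares in member promoters than in the promoters of all protein-coding genes or of those detected here. The YY1 core was in 16.2% of member promoters, against 5.53% of promoters of detected genes and 3.05% of all 21262 promoters. The ETS core was in 33.8% of member promoters, 21.3% of those of detected genes and 11.6% of all. The NRF1 palindrome core was in 17.6% of member promoters, 12.01% of those of detected genes and 6.38% of all, and the NRF1 short site TGCGCA, which can overlap it, in 29.7%, 15.7% and 9.74%. Of the other elements, the CCAAT box was in 39.2% of member promoters and 38.5% of those of detected genes, the E-box CACGTG in 9.46% and 10.9%, and the cyclic AMP response element TGACGTCA in 2.70% and 3.35%. The Sp1 box GGGCGG was in 52.7% of member promoters, below the 64.5% of detected genes, and the TATA box TATAAA in 6.76%, against 6.40%. Both strands were searched. Member promoters had a median GC content of 58.8% and 21.5 CG dinucleotides, against 56.3% and 13 over all promoters, so the base composition moves with the motif shares and its part in them was not tested. A match of letters is not a bound site.

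**Figure D1:**
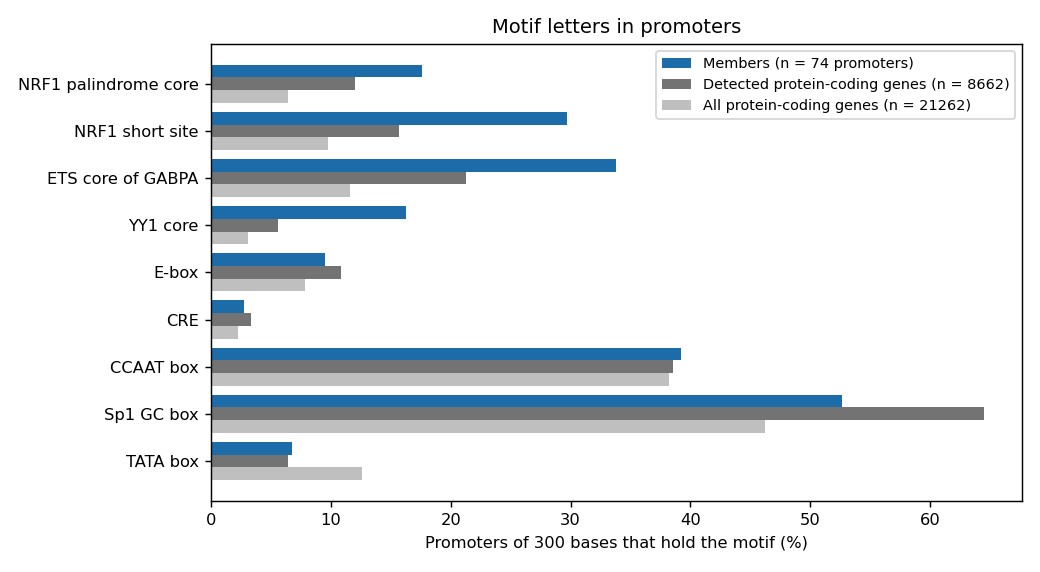
Share of 300-base promoters (percent, x axis) that hold each motif (y axis), for members (blue, 74 promoters), detected protein-coding genes (dark grey, 8662) and all protein-coding genes (light grey, 21262). The YY1 core, the ETS core and the NRF1 short site stand furthest above the detected genes in members, the Sp1 box stands below them, and the CCAAT, E-box and TATA elements show little gap.

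Many members lay head to head with another protein-coding gene. Within 1000 bases, 33 of 77 members (42.9%) had the start of such a gene on the opposite strand, against 19.9% of the 8452 detected protein-coding genes and 10.9% of all 21461. A start is here the outermost annotated start of a gene in GENCODE M21. It need not be the start in use or the RefSeq start of the promoters above. In 18 of the 33 the partner started upstream of the member, and in 15 it started inside the member, so that the genes overlap. In 12 of the 33 the starts were within 100 bases of each other, and 28 of the 33 partners were detected in both libraries. One pair joins both subunits, with the outermost starts of Mrpl46 of the large and Mrps11 of the small subunit 412 bases apart on chromosome 7. Their transcripts of highest TPM start closer to each other, at 78783089 for Mrpl46 and 78783119 for Mrps11. In TPM, a length-scaled share of all transcripts, Mrpl46 stood at 14.95 in replicate 1 and 14.24 in replicate 2, and Mrps11 had 13.88 and 11.97. Several partners serve mitochondria too, though their share among partners was not computed. Examples are Twnk, the mitochondrial DNA helicase beside Mrpl43, and Sars2, the mitochondrial seryl-tRNA synthetase beside Mrps12. Another is Ndufs6, a complex I subunit that starts 29 bases from the outermost start of Mrpl36. The RefSeq promoter window of Mrpl36 lies further off, at chr13:73330759-73331058, whereas Ndufs6 starts at 73328542. Levels of such neighbours could differ widely. Fau, which encodes a cytosolic ribosomal protein and starts 59 bases from Mrpl49, had 271.85 TPM in replicate 1 and 221.65 TPM in replicate 2, whereas Mrpl49 had 10.49 and 7.24. Apba3, 26 bases from Mrpl54, had 0.69 and 1.03, whereas Mrpl54 had 56.71 and 33.74. The partner was higher than the member in both libraries for 11 of the 33 members and lower in both for 19. Mrpl46 and Mrps11 enter these counts once each, as member and as partner. The 77 members were spread over 17 chromosomes, with 11 on chromosome 11.

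The libraries held 39919858 (replicate 1) and 48043009 (replicate 2) expected counts over Ensembl gene rows. Erythroid and MEP markers were present, 9 of 9 reaching 1 TPM in each library, led by Car1 at 723.14 and 707.62, with Gata1 at 35.84 and 31.29 and Klf1 at 43.04 and 49.03. The megakaryocyte list had 3 of 6, with Pf4 at 23.46 and 8.71. Markers of other cells differed between the libraries. The summed TPM of 9 granulocyte and monocyte markers was 60.85 and 121.25, with 4 of 9 detected. That list was split, with S100a8 at 30.67 and 68.16 and Ngp at 3.57 and 14.83, but Mpo at 8.53 and 1.64. The sum of 8 lymphoid markers was 7.22 and 16.18, with Gzma at 0 and 9.03, Nkg7 at 7.01 and 5.02, and Cd3e, Cd4 and Cd8a at 0. That of 6 stem and multipotent markers was 24.51 and 4.93, with 2 of 6 detected. Cd34 was at 18.27 and 1.44, Slamf1 at 2.02 and 0.92, Flt3 at 1.24 and 0.52, and Hlf at 1.24 and 0.16. Mecom was at 1.74 and 1.89, and Ly6a at 0. Of 4 macrophage and dendritic markers the sum was 7.08 and 13.22, with C1qa and Adgre1 at 0, and of 4 stromal and endothelial markers 4.09 and 2.21, with Cdh5 and Col1a1 at 0. Their part in the differences between libraries given below was not tested. Nuclear protein-coding genes held 25.5% of all TPM in replicate 1 and 20.6% in replicate 2. In bulk RNA, fewer cells of a type and less RNA per cell cannot be told apart.

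All 77 members were detected, that is, reached 1 TPM in each library, against 39.4% of nuclear protein-coding genes. They spanned a 29.9-fold range, with mean TPM from 2.86 for Mrpl14 to 85.3 for Mrps21. The median of their mean TPM was 17.3, and the medians in the single libraries were 16.5 in replicate 1 and 16.9 in replicate 2. The middle 50% of members lay between 9.79 and 29.5. Detected nuclear protein-coding genes had a median of 8.13, and 66 of the 77 members lay above it. Members were also closer to each other, with an SD of 1.06 on the log2 scale against 1.73 over detected genes. This was not particular to them. Of the related lists given below, mitochondrial DNA expression genes had 1.06, translation factors 1.05, assembly factors 0.99 and the other subunits 0.53. Cytosolic ribosomal protein genes, paralogs and retrocopies annotated as coding included, had 1.61. Their upper and lower quartiles were nonetheless 2.86-fold apart, against 3.01-fold for members and 4.74-fold for detected genes. Together the 77 members took 0.330% of the expected counts in replicate 1 and 0.350% in replicate 2. The count behind a single member ran from 100 (replicate 1) and 119 (replicate 2) for Mrpl14 up to 5301 and 6127 for Mrpl18, so no member rested on a few reads.

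**Figure D2:**
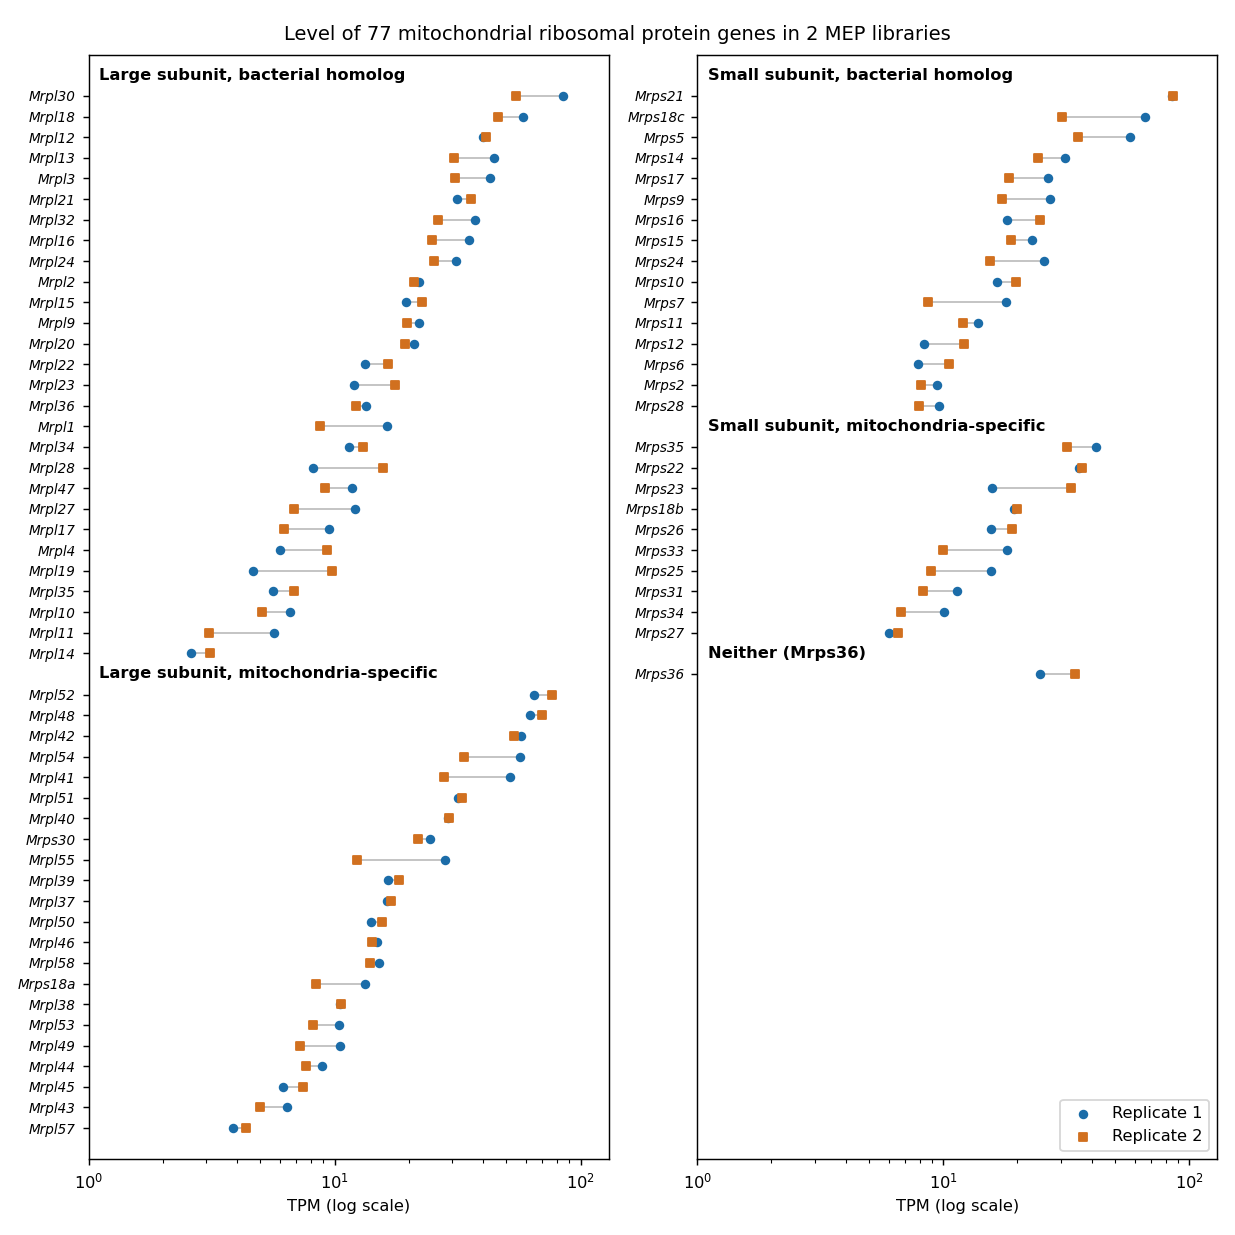
TPM (x axis, log scale) of each of the 77 members (y axis) in replicate 1 (blue circles) and replicate 2 (orange squares), by subunit and origin, sorted by mean TPM. Grey lines join the libraries. Mean levels run from 2.86 to 85.3, and the widest gaps are at Mrpl55, Mrps18c, Mrps23, Mrpl19 and Mrps7.

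The highest members came from both subunits and both origins. Mrps21, a small-subunit protein with a bacterial homolog, had 84.86 TPM in replicate 1 and 85.77 TPM in replicate 2. Mrpl52, a mitochondria-specific protein of the large subunit, had 64.90 and 76.55. Mrpl30, which has a bacterial homolog in the large subunit, had 84.77 and 54.86. In replicate 1 Mrps18c stood above Mrpl52, and in replicate 2 Mrpl48 stood above Mrpl30. Mrpl48, mitochondria-specific, had 62.47 and 69.64. Mrpl42, also mitochondria-specific, had 57.48 and 53.62. Mrpl18, a protein of the central protuberance of the large subunit, had 58.43 and 46.07. Mrps21, with a mean of 85.3 ± 0.64 (SD, n = 2), stood above Mrpl52 by more than either SD, but not above Mrpl30, whose SD is wider than the gap. Mrpl52 at 70.7 ± 8.24, Mrpl30 at 69.8 ± 21.1 and Mrpl48 at 66.1 ± 5.07 did not differ beyond their spread, and neither did Mrpl42 at 55.6 ± 2.73 and Mrpl18 at 52.3 ± 8.74.

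Below them came 6 members of mean TPM from 37.5 to 48.2, 5 of which had a lower TPM in replicate 2. Mrps18c had 66.14 in replicate 1 and 30.24 in replicate 2, and Mrps5, of the small subunit, had 57.37 and 35.17. Mrpl54 had 56.71 and 33.74, and Mrpl41 had 51.84 and 27.77, both mitochondria-specific. Mrpl13 had 44.34 and 30.69. Mrpl12 had a similar TPM in both as deposited, at 40.23 and 41.33. Its product forms the flexible stalk that contacts the translation factors and also binds the mitochondrial RNA polymerase. Ranked by expected counts per kilobase of annotated length in place of TPM, 10 of these 12 members were still in the first 12.

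The 8 lowest members included 7 of the large subunit. Mrpl14, at the interface between the subunits, had 2.60 TPM in replicate 1 and 3.11 TPM in replicate 2. Mrpl57 had 3.88 and 4.38. Mrpl11 and Mrpl10, which form the base and anchor of the stalk that carries Mrpl12, had 5.66 and 3.09 for Mrpl11, and 6.62 and 5.08 for Mrpl10. The stalk genes thus stood at both ends of the range, since Mrpl12 ranked 10 of 77, Mrpl10 73 and Mrpl11 75. Mrpl45, which sits at the tunnel exit by the inner membrane, had 6.20 and 7.47. Mrpl43 had 6.43 and 4.98, Mrpl35 had 5.63 and 6.84, and Mrps27, a pentatricopeptide-repeat protein and the only member of the small subunit among the 8, had 6.03 and 6.56.

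The 50 large-subunit members had a median of 14.8 and the 26 small-subunit members a median of 18.9. The difference of the median log2 mean TPM was -0.34, and computed within a library it was -0.20 in replicate 1 and -0.15 in replicate 2. The value from mean TPM thus lay outside the pair from single libraries. The 44 members with a bacterial homolog had a median of 19.1 and the 32 mitochondria-specific ones 15.7, a log2 difference of 0.29. With expected counts per kilobase of annotated length that difference was -0.017, so it has no settled direction. Mrps36 was placed in neither subunit, since its product is known as a component of the alpha-ketoglutarate dehydrogenase complex, and it had a TPM of 24.65 and 34.31.

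The Mrps18 paralogs occupy separate places in the ribosome. Mrps18c, which takes the place of the bacterial homolog in the small subunit, was the highest in both libraries, at 66.14 TPM in replicate 1 and 30.24 TPM in replicate 2. Mrps18b, elsewhere in the small subunit, had 19.31 and 19.95. Mrps18a, which sits in the large subunit, had 13.35 and 8.43. The order was the same in both libraries. Mrps30, a large-subunit protein despite its symbol, had 24.54 and 21.77. Mrpl58, a peptidyl-tRNA hydrolase that frees stalled ribosomes and is also built into the large subunit, had 15.15 and 13.92.

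**Figure D3:**
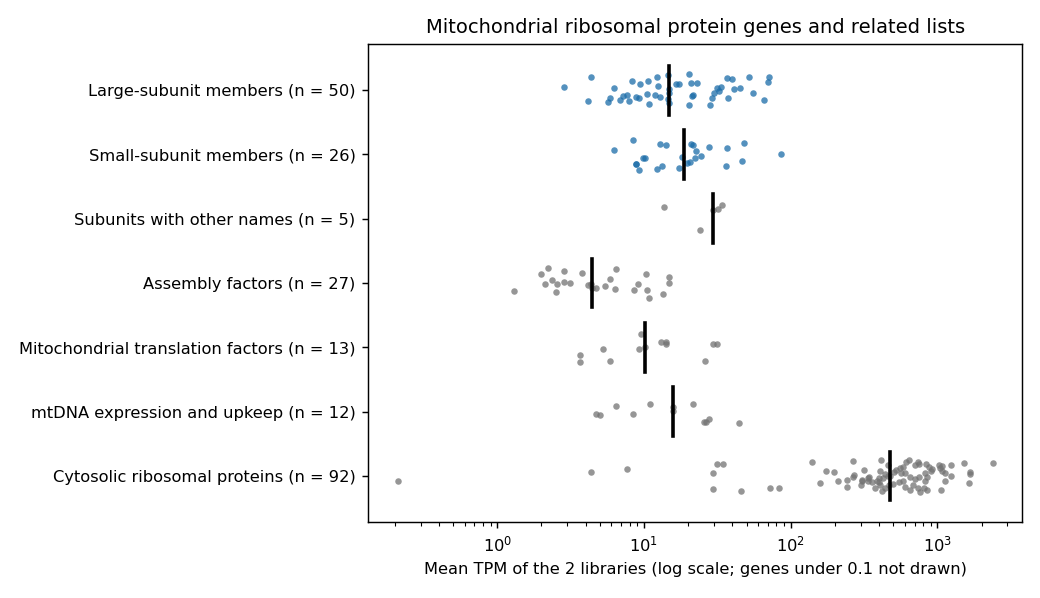
Mean TPM of the 2 libraries (x axis, log scale) for members of each subunit (blue) and for related gene lists (grey), 1 point per gene, with the list median as a black line. The cytosolic ribosomal protein genes lie far to the right, at a median of 472 (4 of the 92 lie under 0.1 and are not drawn), and the assembly factors lie to the left, at 4.41.

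The other parts of the mitochondrial translation system are given from lists chosen for their known roles. The 5 subunits with names of other kinds were all detected, at a median of 29.6. Ptcd3 had 41.22 TPM in replicate 1 and 26.72 TPM in replicate 2, Aurkaip1 34.22 and 29.48, Dap3, the GTP-binding protein of the small subunit, 26.25 and 32.86, Chchd1 32.36 and 15.73, and Gadd45gip1 14.20 and 13.31. These lay within the range of the members. Of 27 assembly factors 26 were detected, at a lower median of 4.41. The highest was Mterf3 at 17.83 and 12, followed by the ribosomal RNA methyltransferase Mrm3 at 16.96 and 12.65, Rbfa, which matures the small subunit, at 12.59 and 14.52, and the pseudouridine synthase Trub2 at 7.60 and 14.04. At the low end stood the methyltransferase Mrm2 at 2.68 and 1.30 and Ybey at 1.95 and 0.67.

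All 13 translation factors were detected, at a median of 10.2. The elongation factor Gfm1 had 25.13 TPM in replicate 1 and 37.45 TPM in replicate 2, the initiation factor Mtif2 31.31 and 28.05, and the elongation factor Tufm 24.63 and 27.49. Tsfm, which recycles Tufm, had 14.80 and 13.65. The lowest were the release factor homolog Mtrf1 at 4.30 and 3.03 and the formyltransferase Mtfmt at 3.97 and 3.34. All 12 genes of mitochondrial DNA expression and upkeep were detected, at a median of 15.9. Tfam, which packages mitochondrial DNA, led them at 50.82 and 38.12, followed by Lrpprc at 30.76 and 24.78, Ssbp1 at 31.10 and 21.93 and Pnpt1 at 29.78 and 21.42. The RNA polymerase gene Polrmt had 5.66 and 3.82 and its elongation factor Tefm 5.12 and 4.88.

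Cytosolic ribosomal protein genes were far higher. Members had a median of 17.3 and the 92 cytosolic ribosomal protein genes, paralogs and retrocopies annotated as coding included, a median of 472. With the 87 of these 92 that had a mean of at least 1 TPM, the difference was -4.87 ± 0.18 on the log2 scale (SD, n = 2 libraries). The 13 messenger RNAs encoded by mitochondrial DNA, the templates of this ribosome, were all detected and had a median TPM of 344, and they took 1.78% of expected counts in replicate 1 and 2.30% in replicate 2. Their TPM values were uneven. At the high end were mt-Atp8 at 11147.6 and 8511.85, mt-Co1 at 3994.63 and 3993.37, mt-Nd3 at 470.14 and 1707.68 and mt-Nd1 at 834.82 and 923.31. At the low end were mt-Co2 at 30.10 and 84.43 and mt-Nd4l at 97.85 and 3.20. The part of effective length and of the assignment of reads between neighbouring genes in these values was not tested.

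The libraries were then set against each other. Across the 77 members the TPM of replicate 1 and replicate 2 had a Spearman rho of 0.896 and a Pearson r of 0.899 on the log2 scale, across genes that share their library and are not independent replicates. As deposited, 45 members were higher in replicate 1 and 32 in replicate 2, but the 9033 nuclear protein-coding genes averaging 1 TPM or more had a median ratio of 0.27 on the log2(TPM + 1) scale, higher in replicate 1. Relative to that shift, the members' median ratio of replicate 1 over replicate 2 was -0.11, with 33 of 77 above 0. A pair of libraries gives no measure of how often such a shift arises.

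At over 2-fold, 3 of 74 members tested differed, against a background of 4.26% of 5634 nuclear protein-coding genes tested the same way, those with a mean of 5 TPM or more and 20 or more expected counts over both libraries. The members' share, 4.05%, is near that background. All 3 were higher in replicate 2 and none in replicate 1, against a background of 2.13% in each direction. Mrps23, a mitochondria-specific protein of the small subunit, had 15.74 TPM in replicate 1 and 32.87 TPM in replicate 2. Mrpl19 had 4.67 and 9.74, and Mrpl28 had 8.15 and 15.76, both with bacterial homologs in the large subunit. Centred ratios were -1.29 for Mrps23, -1.19 for Mrpl19 and -1.15 for Mrpl28. Within 1.5-fold lay 61 of the 74 members (82.4%), against 83.0% of the genes tested.

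The expected counts behind these 3 were less alike. Mrpl28 had 595 counts in replicate 1 and 1466 in replicate 2, and its ratio on TMM-scaled counts was -1.07. Mrps23 had 1599 and 2012 counts, with a ratio of -0.10, and Mrpl19 had 1508 and 1813, with a ratio of -0.03. For Mrps23 the effective length in the authors' table was 1112 bases in replicate 1 and 455 in replicate 2, and for Mrpl19 it was 3537 and 1384. With TMM-scaled counts, Mrpl28 alone passed 2-fold, against a background of 3.19%. Effective lengths differed by over 1.2-fold in 14 of the 77 members, a share not computed over all genes. Next to the threshold stood Mrpl55, with a TPM of 28.23 and 12.33 and a centred ratio of 0.86, and Mrps18c with 0.83, both higher in replicate 1, and Mrpl4, with a TPM of 5.98 and 9.28 and a ratio of -0.83, higher in replicate 2. The authors' TPM intervals, whose level is not stated, did not overlap after centring for 55 of the 74 members, against a background of 74.0%.

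**Figure D4:**
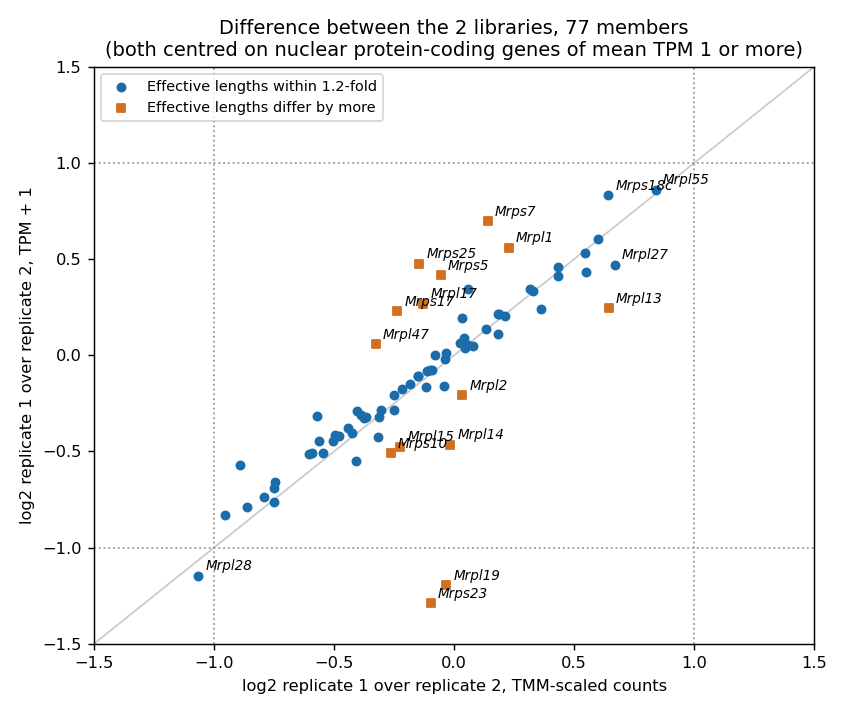
Log2 ratio of replicate 1 over replicate 2 for the 77 members, from TMM-scaled expected counts (x axis) and from TPM + 1 centred on nuclear protein-coding genes of mean TPM 1 or more (y axis), with dotted lines at 2-fold. Orange squares mark the 14 members whose effective length differs by over 1.2-fold, among them Mrps23 and Mrpl19, which lie near 0 on the x axis and under -1 on the y axis, and Mrpl28 is under -1 on both.

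The transcript tables divide each gene's TPM among its annotated transcripts. Of 58 members with more than 1 annotated transcript, 47 had the same transcript of highest TPM in both libraries and 11 did not, 19.0% against a background of 27.4% of 6363 nuclear protein-coding genes. With the leading transcript taken by expected counts, 6 of the 58 differed, 10.3% against a background of 18.8%. In Mrps23 the coding transcript of 1332 bases held 95.2% of the gene's TPM in replicate 1 and 23.3% in replicate 2, where a coding transcript of 332 bases held 46.1%. In Mrpl19 the coding transcript of 5000 bases held 71.0% in replicate 1 and 24.9% in replicate 2, where a processed transcript of 419 bases held 59.4%. The lowest member, Mrpl14, was assigned wholly to its coding transcript in replicate 1 and wholly to a processed transcript of 510 bases in replicate 2, on 100 and 119 counts. Mrps17 also changed places between coding transcripts, with 80.1% on one of 832 bases in replicate 1 and 67.7% on another of 1199 bases in replicate 2.

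The other 7 of the 11 were Mrpl1, Mrpl13, Mrpl17, Mrpl24, Mrpl51, Mrps25 and Mrps5. In Mrpl1 and Mrpl24 both leading transcripts were protein-coding. In Mrpl13 a coding transcript led replicate 1 with 61.9% and a transcript of the nonsense-mediated decay class, predicted to be degraded after a first round of translation, led replicate 2 with 42.5%. In Mrpl17 such a transcript led replicate 1 with 44.8%, where it held 0% in replicate 2. In Mrps25 a retained-intron transcript led replicate 1 with 67.0% and a coding one led replicate 2 with 54.4%. Mrps5 was led by retained-intron transcripts in both libraries, by a different one in each. In Mrpl51 a processed transcript led replicate 1 with 48.5%, and a retained-intron transcript led replicate 2 with 55.5%.

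By TPM, a transcript outside the protein-coding class led in both libraries in 8 of the 58 members (13.8%), against 8.24% of 6363 genes. Beside Mrps5 and Mrpl51, these were 6 members with the same leading transcript in both. Mrps14 was led by a nonsense-mediated decay transcript with 84.0% in replicate 1 and 83.5% in replicate 2, and Mrpl3 by one with 52.7% and 65.5%. Retained-intron transcripts led Mrps26 with 85.3% and 90.7% and Mrps24 with 81.0% and 100%. Processed transcripts led Mrpl15 with 48.4% and 45.0% and Mrpl47 with 69.1% and 57.0%. All these leads are by TPM, which is divided by length. By expected counts a coding transcript led both libraries in Mrps14, Mrpl47, Mrps5 and Mrpl51. In Mrpl3, Mrps26, Mrps24 and Mrpl15 a transcript outside the coding class still led both. The coding transcript of Mrps14 had 1272.21 counts in replicate 1 and 1468.22 in replicate 2, against 1083.79 and 1215.81. No background by counts was computed. The single transcript of Mrpl32 in the tables is of the nonsense-mediated decay class in GENCODE M21. Over all members, protein-coding transcripts held 80.1% of TPM in replicate 1 and 82.1% in replicate 2, against 85.5% and 87.1% over all nuclear protein-coding genes. Nonsense-mediated decay transcripts held 7.39% and 7.06% of the members' TPM, against 2.62% and 2.48%. A few genes weigh heavily in this share. The highest such transcripts were those of Mrpl32 at 37.16 and 26.25 TPM, Mrps14 at 26.32 and 20.18, Mrpl3 at 22.67 and 20.24, and Mrpl48 at 16.65 and 20.34. The retained-intron class held 8.76% and 7.32%, against 6.66% and 5.83%. In expected counts, protein-coding transcripts held 85.6% and 87.2% of the members' total, against 91.6% and 92.5%. Nonsense-mediated decay transcripts held 5.80% and 5.54% of counts, against 1.97% and 1.91%, and retained-intron ones 6.42% and 5.40%, against 4.07% and 3.46%. Total RNA includes unspliced nuclear RNA, whose part in the retained-intron share was not tested.

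**Figure D5:**
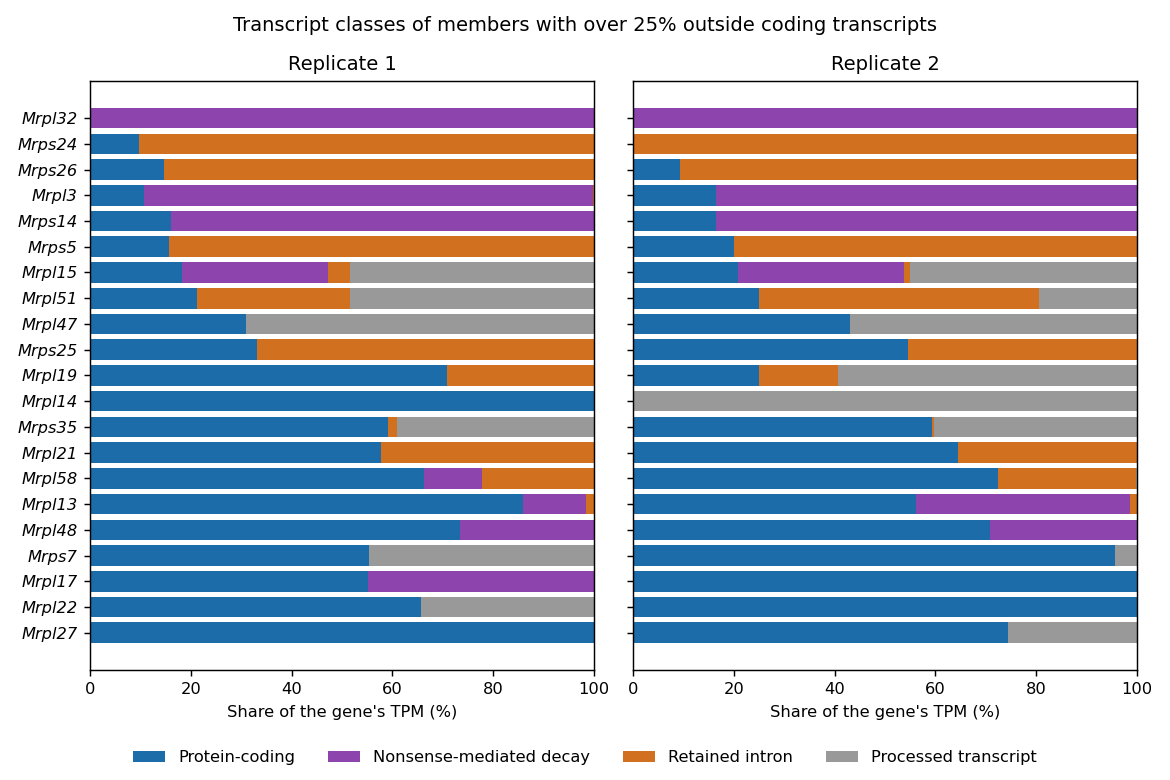
Share of the gene's TPM (x axis, percent) by transcript class in replicate 1 (left) and replicate 2 (right) for the 21 members with over 25% outside protein-coding transcripts in at least 1 library. Mrpl32, Mrps24, Mrps26, Mrpl3 and Mrps14 lie mostly outside the protein-coding class in both libraries, while Mrpl14 and Mrpl19 change class between them.

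Some members cannot be fully separated from other loci. Of the 77 members, 32 share exon bases with another annotated gene, 28 of them with one on the opposite strand and 7 with one on the same strand. The same share was not computed over all genes, so no excess in members is claimed. The sources used here do not say whether counting used strand, so reads of such pairs may be split in ways these tables do not show. Mrpl19, past 2-fold above, shares 1962 exon bases with Gcfc2 on the other strand, and Mrps25 shares 4590 with Nr2c2. On the same strand, Mrps34 shares 763 exon bases with Nme3 and Mrpl53 shares 695 with the read-through gene Gm42688. Processed copies are a further source of uncertainty. At 85% identity over at least 50% of the coding sequence, 29 members had 54 copies elsewhere in the annotation. Copies of other genes were not searched, so these counts have no background either. Of these, 43 had a row in the gene tables, and 5 of the 43 had more than 3 expected counts in both libraries.

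The copy of Mrpl23 on chromosome 2, Mrpl23-ps1, drew more counts than the gene. It had 1341.28 expected counts in replicate 1 and 1342.93 in replicate 2, whereas Mrpl23, which lines the exit of the peptide tunnel, had 515.72 and 1103.07. Both share 421 identical bases of the 516-base coding sequence, and the stretch below, coding bases 96 to 185 of Mrpl23 from GENCODE M21, occurs in both, so a read from it has no single origin. Gm5776, a copy of Mrps33 on chromosome 7, had 211.73 and 30.35 counts, whereas Mrps33 had 1375.27 and 1107.65. Coding bases 1 to 90 of Mrps33 are identical in it and are shown for the same reason.
Mrpl23: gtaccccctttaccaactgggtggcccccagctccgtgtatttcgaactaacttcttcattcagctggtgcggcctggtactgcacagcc
Mrps33: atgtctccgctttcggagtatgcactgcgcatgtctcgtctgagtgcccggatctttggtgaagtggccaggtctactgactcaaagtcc

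Members are short. The median of their mean transcript length in the tables was 1050 bases, against 2352 for detected nuclear protein-coding genes, and 35 members were under 1000. Across members, length and TPM had a Spearman rho of -0.44, and length and expected counts per kilobase of annotated length gave -0.31, as descriptions across genes that share their libraries. Short transcripts lose more of their length in the effective length that TPM is divided by. For Mrps21 it was 231 of 452 bases in replicate 1 and 241 of 465 in replicate 2, and Mrps21 ranked 1 of 77 on both scales. Mrpl52 ranked 2 by TPM and 8 by counts per kilobase.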

How the data were processed

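Tables of genes and transcripts were deposited for both libraries, on mm10 and GENCODE M4, per the accompanying text files. Per the file headers, the authors' values are an expected count (not normalized), a TPM and an FPKM (scaled by length and library), posterior mean TPM, bounds of a TPM interval and lengths. The deposited tables also give, per the file headers, the percent of a gene's TPM on each transcript. The authors' interval bound of TPM is handled as a score, since its level is not stated. The quantifying program and the strand used are not given in the sources used here. Of 43346 Ensembl gene rows, 42462 matched GENCODE M21, which gave names, classes and coordinates, and 884 did not; 97 spike-in rows were left out.

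The ratio between libraries is log2((TPM + 1) of replicate 1 over replicate 2), less the median over nuclear protein-coding genes at a mean TPM of at least 1. It was tried on simulated data. That trial is not used as evidence on effective lengths that differ between libraries, as they do for Mrps23 and Mrpl19. TMM factors (edgeR 4.0.16) and DESeq2 1.42.0 size factors came from 12175 genes with 10 counts or more in each library, in R 4.3.3. Other steps used Python 3.11.15 and BLAST 2.17.0. No count test was run, since there is 1 group. The libraries were not the same data, as 50 of 15940 rows with counts were equal. The tables carry no molecular identifiers, so counts speak for counting error only. The members, lists, motifs and named genes were chosen with earlier results of these data known. The named genes are the 12 highest and 8 lowest members, those past 2-fold, paralogs, members of other known roles, members with a leading transcript that differs or is not coding, and the extremes of each related list. Motifs, printed stretches and head-to-head partners to name were chosen after their values were seen.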

Additional observations from a re-analysis of the deposited data

Results flagged for a closer look

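Processed copies of members lie outside the members' own rows, and 5 of the 43 with a row held expected counts above the 3 taken as the limit that a count of 0 allows, in both libraries. Mrpl23-ps1 had 1341.28 in replicate 1 and 1342.93 in replicate 2. Gm5776, the copy of Mrps33, had 211.73 and 30.35, and Mrpl48-ps had 71.66 and 8.69. Gm6304, the copy of Mrpl27, had 4.89 and 31.56, and Gm13328, the copy of Mrps5, had 13.99 and 28.61. How many of these reads came from the parent genes was not tested.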

How the results depend on the processing

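No paired analysis was possible because there is 1 group. All 77 members were detected under each alternative except a minimum of 5 TPM, which left 72. The median level was 16.5 to 16.9 when either replicate was left out, 76.6 with TPM made to sum over nuclear protein-coding genes alone and 44.4 as FPKM. The share of counts was 0.330% to 0.350% in the single libraries and 0.396% of counts of nuclear protein-coding genes. The log2 difference of large and small subunit was -0.20 to -0.15 in single libraries, -0.18 with counts per kilobase of annotated length and -0.40 with the subunit read from the symbol, an alternative chosen after seeing the data. The difference of bacterial-homolog and mitochondria-specific members was 0.20 to 0.23 in single libraries, -0.017 with counts per kilobase and 0.45 with Mrpl55 counted as a homolog, also chosen after seeing the data; the causes were not tested. The difference from cytosolic ribosomal proteins ran from -5.03 to -4.77 in single libraries. The members' shift between libraries was -0.14 with a pseudocount of 0.1, -0.12 at a mean TPM of at least 5, and 0.16 both without centring and without the filter, when the median of all genes is 0. Past 2-fold stood 1 member, Mrpl28, with TMM-scaled counts and likewise with DESeq2 size factors. Without centring there were 3, Mrpl55 and Mrps18c higher in replicate 1 and Mrps23 higher in replicate 2. The same leading transcript was found in 46 of 58 members by posterior mean TPM, 52 of 58 by expected counts, and 47 of 56 at a minimum of 5 TPM. Leaving out a replicate could not be run for results between libraries, which then have 1 library.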
